A study of Mus musculus castaneus and Mus musculus domesticus and Mus musculus with 11 samples.

Results

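The 5 genes described here encode the neuronal intermediate filament proteins: the light, medium and heavy neurofilament subunits Nefl, Nefm and Nefh, alpha-internexin (Ina) and peripherin (Prph). They were taken by their mouse Ensembl gene IDs from a matrix of 27071 genes, and all 5 were among the 14839 genes that passed the filter on low counts. Polyadenylated RNA had been sequenced from motor neurons differentiated in culture from stem cells of 3 mouse lines, with 3 libraries per line. The first line was 129S6/SvEv, a laboratory strain labelled Mus musculus domesticus and called 129 here. The second was CAST/EiJ, a wild-derived inbred strain labelled Mus musculus castaneus and called CAST here. The third carried both genomes, is labelled 129CAS, is described as CASTx129, and is called the hybrid here. The labels name no treatment, transgene, passage or number of clones behind a line. They list 11 samples, and the 2 further CAST samples, numbered 7 and 8, were not analysed here. Separate cultures are not stated for the libraries of a line, and the p-values below then cover only the spread among these libraries, which may be technical. The series asks what transcriptional identity the lines take on as neurons, in a model of how neurite growth varies between kinds of mouse.

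Neurofilaments are long cytoplasmic cables that fill the axon. The light subunit forms the core and assembles with the medium and heavy subunits, whose long tails project sideways and are heavily phosphorylated at repeats of lysine, serine and proline. Alpha-internexin is a further subunit that appears early in developing neurons of the central nervous system, and peripherin is a related filament protein of peripheral neurons and of central neurons whose axons leave the brain and spinal cord, motor neurons among them. During development Ina, Prph and the light and medium subunits are made before the heavy subunit, which is typical of mature, large-calibre axons. Their amount sets axon calibre, and motor neurons are among the cells richest in them.

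The coding sequences of the members differ in the number of repeats of lysine, serine and proline. Counted in frame in GENCODE M21 on GRCm38, the assembly also called mm10, the Lys-Ser-Pro codon triplet occurred 51 times in Nefh, between codons 522 and 887, and 4 times in Nefm, between codons 501 and 609. It did not occur in the coding sequences of Nefl, Ina or Prph. The 2 stretches below are coding exon sequence, 90 bases each on the minus strand, at the start of the triplets of either gene, with each triplet in capitals.
Nefm, chr14:68121063-68121152, codons 478 to 507: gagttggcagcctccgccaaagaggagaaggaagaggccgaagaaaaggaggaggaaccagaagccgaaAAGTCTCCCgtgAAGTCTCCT
Nefh, chr11:4940974-4941063, codons 519 to 548: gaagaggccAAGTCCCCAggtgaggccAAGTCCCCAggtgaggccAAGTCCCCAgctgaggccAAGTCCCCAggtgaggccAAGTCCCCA
The Nefm stretch holds 2 triplets behind a run rich in glutamate codons, and the Nefh stretch holds 5, spaced evenly. Glutamate took 21.1% of codons in Nefm, 17.9% in Nefl, 16.8% in Nefh, 13.6% in Ina and 13.0% in Prph. Lysine took 13.5% of codons in Nefh and 11.7% in Nefm, against 7.0% in Nefl, 4.99% in Ina and 4.34% in Prph. The repeats of Nefh also bear on counting: 3.8% of its 50-base words and 1.13% of its 100-base words occur more than once within its own transcript.

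Nefl and Nefm are neighbours on chromosome 14, and their annotated exons overlap. Nefl (ENSMUSG00000022055) lies on the plus strand at chr14:68083863-68089095, with 4 exons, a transcript of 3380 bases and 543 codons. Nefm (ENSMUSG00000022054) lies on the minus strand at chr14:68082590-68124846. Its main transcript has 3334 bases and 848 codons, and a longer transcript model ends in an exon that runs across the first exon of Nefl in the opposite direction. The shared block holds 1108 bases, which is 32.8% of the exonic bases of Nefl, 19.2% of those of Nefm and, with 1008 coding bases, 61.8% of the coding sequence of Nefl. The strand setting of the counting is not given in the sources used here, so reads in this block cannot be assigned to a strand and the counts of both genes are uncertain to that degree. Nefh (ENSMUSG00000020396, chr11:4938754-4948064, minus strand, 3994 bases, 1090 codons) and Prph (ENSMUSG00000023484, chr15:99055174-99058978, plus strand, 1863 bases, 507 codons) overlap no other exon. Ina (ENSMUSG00000034336, chr19:47014698-47025327, plus strand, 3240 bases, 501 codons) has 14.1% of its exonic bases on the opposite strand of Nt5c2, a nucleotidase gene, and shares 11.4% of its 100-base words with it. Reads in that overlap cannot be assigned to a strand either, so the counts of Ina, and every ratio with Ina below, carry the same kind of uncertainty.

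**Figure D1:**
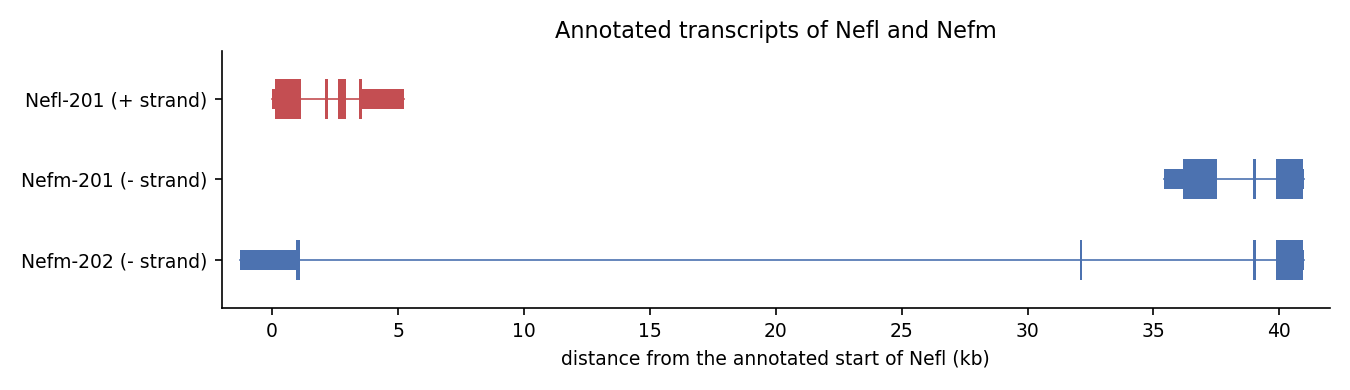
Annotated transcripts of Nefl (red) and Nefm (blue), drawn to scale against the distance in kilobases from the annotated start of Nefl, with coding sequence as tall boxes, untranslated exon as low boxes and introns as lines. The last exon of the longer Nefm transcript lies under the first exon of Nefl, where 1108 bases overlap on opposite strands.

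The total count per library ran from 7763077 to 18167577, and 1 library of CAST and 1 of the hybrid stood apart from the rest. CAST 1 and hybrid 2 held relatively many reads on short transcripts: relative log2 expression changed by −0.78 and −0.67 per doubling of exon length there, by −0.18 in hybrid 3, and by 0.17 to 0.35 in the other 6 libraries. Motor neuron genes were detected, several of them at low levels: Mnx1, a motor neuron transcription factor, ran from 0.495 to 4.88 CPM, the count scaled to library size, Chat, the acetylcholine-synthesizing enzyme, from 5.52 to 28.4 CPM, and Isl1, a transcription factor of motor and sensory neurons, from 13.1 to 62.7 CPM. Isl2, Lhx3, Lhx4, Mmp9 and Chodl, also on the list of spinal motor neuron genes, stayed at or below 14.6 CPM in every library. The remaining genes of that list were higher. Ret and Gfra1, which encode receptors for a neurotrophic factor, reached 529 and 465 CPM, Slc5a7, the choline transporter, from 15.9 to 258 CPM, and Slc18a3, the vesicular acetylcholine transporter, from 23.5 to 126 CPM. Fibroblast and mesenchyme genes were present too. The 13 listed summed to between 2157 and 25140 CPM, and 19 general neuronal genes to between 3863 and 15980 CPM. These are bulk samples, so fewer cells of a type and less RNA per cell cannot be told apart.

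The 5 genes were strongly expressed in every library. In 129 replicates 1 to 3 they took 0.346%, 0.551% and 0.888% of all counts. The hybrid libraries gave them 0.330%, 0.670% and 1.13%, and the CAST libraries 1.04%, 0.751% and 0.462%. The ranges of the 3 lines overlapped almost wholly. Nefl and Nefm supplied most of these reads. Nefl held between 32.8% and 48.5% of the reads of the 5 genes, Nefm between 29.4% and 41.2%, and Nefh, with the fewest reads, between 1.37% and 5.34%.

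Per base of transcript the order of the genes was nearly the same in all libraries. On the scale of CPM per kilobase (RPKM, by the longest coding transcript), the order was Nefl, Nefm, Prph, Ina, Nefh in all 6 libraries of 129 and the hybrid. In CAST 2 and CAST 3 Nefm stood above Nefl, and in CAST 1 Prph stood above both. Nefh was lowest and Ina next to lowest in 9 of 9 libraries. Mean levels in 129 were 805 ± 348 RPKM for Nefl, 580 ± 197 for Nefm, 321 ± 196 for Prph, 135 ± 87.2 for Ina and 68.1 ± 45.9 for Nefh (SD, n = 3). In the hybrid they were 871 ± 414 RPKM for Nefl, 774 ± 386 for Nefm, 469 ± 262 for Prph, 90.9 ± 40.7 for Ina and 27.5 ± 5.70 for Nefh. In CAST they were 790 ± 344 RPKM for Nefl, 846 ± 297 for Nefm, 767 ± 736 for Prph, 212 ± 79.1 for Ina and 51.0 ± 29.4 for Nefh (SD, n = 3 in either line). Nefl, Nefm and Prph lay within one another's spread in CAST, and Nefl and Nefm did in every line. The order of the upper pair rests on the length used: with all annotated exons of Nefm in place of its main transcript, Nefl stood above Nefm in 9 of 9 libraries and Nefm above Prph in 6 of 9.

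Nefl, the core subunit, had similar means and overlapping ranges in the lines. Its level was 1693, 2467 and 4002 CPM in 129 replicates 1 to 3, 1416, 3259 and 4158 CPM in the hybrid, and 3940, 2405 and 1664 CPM in CAST. The lowest and the highest library of each line spanned nearly the same range, with means of 2721 ± 1175, 2944 ± 1398 and 2670 ± 1161 CPM (SD, n = 3). Nefm, the medium subunit, was at 1265, 1957 and 2577 CPM in 129, 1389, 2404 and 3944 CPM in the hybrid, and 3797, 2843 and 1817 CPM in CAST. Its means were 1933 ± 656, 2579 ± 1286 and 2819 ± 990 CPM, and again the lines overlapped.

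Nefh, the heavy subunit with the repeat-rich tail, had its narrowest range in the hybrid. It was at 104.6, 244 and 468 CPM in 129, 88.4, 108 and 134 CPM in the hybrid, and 325, 194 and 91.3 CPM in CAST. The 3 hybrid libraries lay between 88.4 and 134 CPM, and 1 library of 129 and 1 of CAST fell within that range. The means were 272 ± 183 CPM in 129, 110.0 ± 22.7 CPM in the hybrid and 203.5 ± 117 CPM in CAST.

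Ina, the subunit of developing central neurons, was at 186, 379 and 743 CPM in 129, 176, 271 and 436.5 CPM in the hybrid, and 970, 617 and 472 CPM in CAST. Every CAST library lay above every hybrid library, while 129 overlapped both. Prph, the filament gene of neurons with peripheral axons, was at 240.2, 585 and 971 CPM in 129, 316.5, 1230 and 1073 CPM in the hybrid, and 2996, 841 and 448 CPM in CAST. CAST 1 stood far above every other library. The highest library of CAST was 6.68 times the lowest for Prph, against 2.06 times for Ina and 2.37 times for Nefl.

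**Figure D2:**
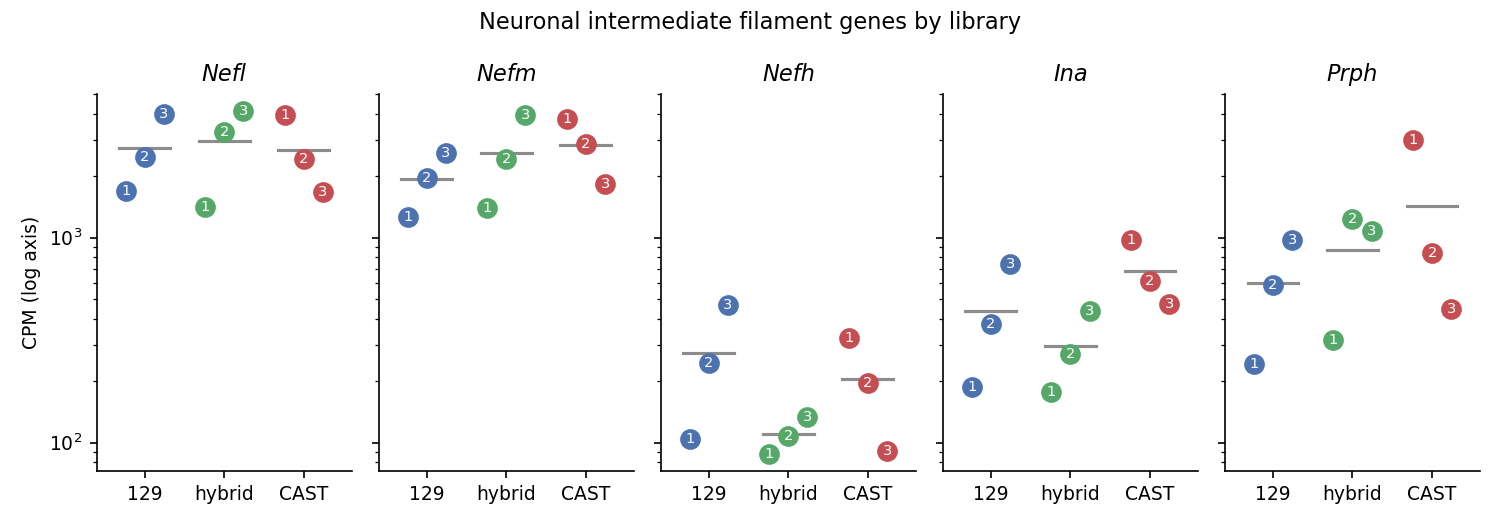
Expression of the 5 genes in each library, in CPM on a log axis, with 1 point per library (numbered by replicate) and a bar at the group mean. Within each line the libraries of a gene are spread over a range of up to 6.68 times, and Ina in CAST against the hybrid is where no library of one line reaches into the other.

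Within each line the summed share of the 5 genes and the mean of the 19 general neuronal genes put the libraries in the same order. That mean was 7.34, 7.82 and 8.56 log2 CPM in 129 replicates 1 to 3. It was 7.34, 7.67 and 8.42 log2 CPM for the hybrid and 8.40, 8.18 and 7.8 log2 CPM for CAST. Single genes of the list need not follow its mean. In CAST replicates 1 to 3, Tubb3 was at 3230, 1060 and 550 CPM, and Dcx at 25.4, 302 and 305 CPM. The libraries with the lowest mean, 129 1 and hybrid 1, were also those with the smallest share of reads on the 5 genes. The fibroblast and mesenchyme genes ran the other way in 129 and the hybrid, with 23220, 17900 and 4791 summed CPM in 129 and 25140, 16010 and 2157 summed CPM in the hybrid. They were at 6636, 5894 and 7270 summed CPM in CAST. Their part in the values of the 5 genes was not tested.

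None of the 5 genes passed the test in any comparison of the lines. The robust quasi-likelihood test of edgeR, adjusted by Benjamini-Hochberg over all 14839 genes, called 0 of 5 in CAST against 129, where it called 0.917% of all genes. It called 0 of 5 in hybrid against 129 (7.02% of all genes), 0 of 5 in hybrid against CAST (6.0%), 0 of 5 against the midparent, which averages the log2 levels of 129 and CAST (7.34%), and 0 of 5 in the joint test over the 3 lines (8.03%). At an unadjusted p under 0.05 the edgeR count was also 0 of 5 in each. The shares of all genes were 14.6%, 22.2%, 15.8% and 18.4% in the first 4 comparisons. DESeq2 and limma-voom called 0 of 5 in each. Over all genes, the DESeq2 counts are given further below, and that of limma-voom only for CAST against 129.

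In CAST against 129, Nefl had a log2 fold change of −0.03 ± 0.63 (SE; 95% interval −1.44 to 1.39; edgeR adjusted p = 0.991). These libraries do not exclude differences within that interval. Nefm stood at 0.54 ± 0.59 (adjusted p = 0.639), Nefh at −0.42 ± 0.60 (0.721), Ina at 0.65 ± 0.59 (0.582) and Prph at 1.26 ± 0.85 (0.483). The Prph value came mainly from 1 library, since without CAST 1 it was 0.10. The median over the 5 was 0.54, and over all tested genes 0.06.

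In hybrid against 129 the lowest value belonged to Nefh, with a log2 fold change of −1.31 ± 0.61 (SE; 95% interval −2.68 to 0.07; edgeR adjusted p = 0.243). It kept its sign under all 19 alternatives, between −1.71 and −0.68, with adjusted p between 0.143 and 0.556. Ina stood at −0.57 ± 0.59 (adjusted p = 0.556), Prph at 0.54 ± 0.84 (0.691), Nefm at 0.42 ± 0.59 (0.667) and Nefl at 0.11 ± 0.63 (0.918). The median was 0.11, against 0.02 over all genes.

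In hybrid against CAST the lowest value belonged to Ina, with a log2 fold change of −1.22 ± 0.60 (SE; 95% interval −2.57 to 0.13; edgeR adjusted p = 0.380). It was negative under all 19 alternatives, between −1.63 and −0.78. Ina was the 1 gene of the 5 whose libraries did not overlap between these lines, a pattern shown by 19.2% of all tested genes. In CAST against 129 and in hybrid against 129, 0 of 5 were without overlap, where 28.6% and 37.5% of all genes were. Nefh stood at −0.89 ± 0.61 (adjusted p = 0.599), Prph at −0.71 ± 0.84 (0.808), Nefm at −0.13 ± 0.59 (0.959) and Nefl at 0.14 ± 0.63 (0.957). Prph changed sign to 0.42 without CAST 1.

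Against the midparent, which asks whether the hybrid lies outside the mean of its parents, Nefh had −1.10 ± 0.55 (SE; edgeR adjusted p = 0.331) and Ina −0.89 ± 0.53 (adjusted p = 0.413). Nefm stood at 0.14 ± 0.51, Nefl at 0.13 ± 0.54 and Prph at −0.08 ± 0.72, with adjusted p of 0.900 and more. The comparisons share libraries, the 3 hybrid ones in particular, so these values are not separate evidence. In the joint test over the lines the lowest adjusted p was 0.386, for Nefh.

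**Figure D3:**
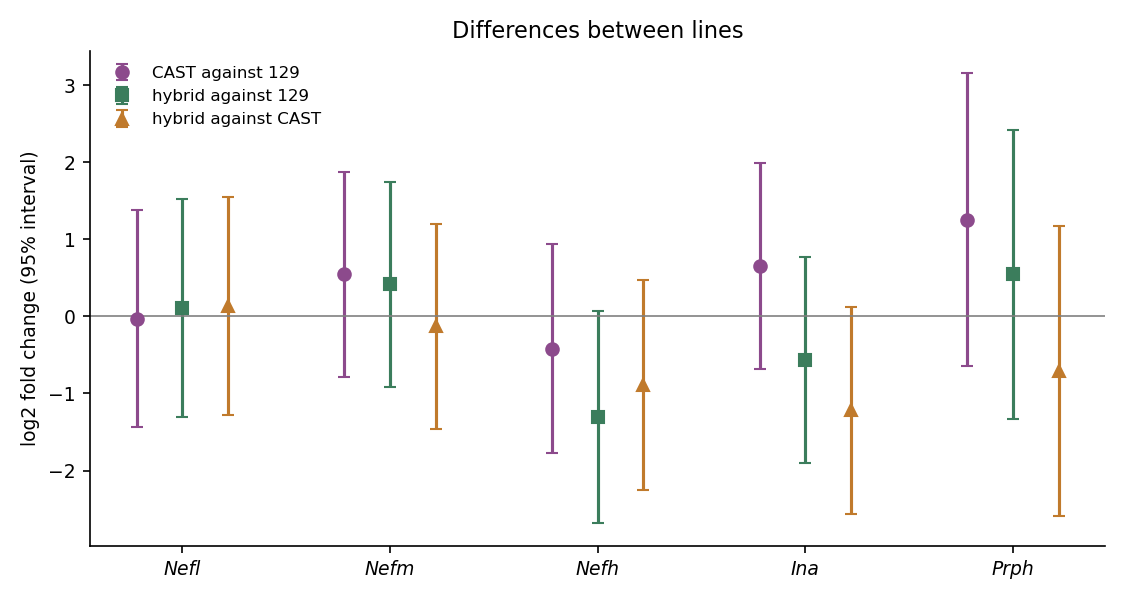
Log2 fold changes of the 5 genes in the 3 comparisons between lines, as points with 95% intervals from the edgeR fit. Every interval spans 0, the widest are those of Prph, and those of Nefh in hybrid against 129 and Ina in hybrid against CAST lie mostly below 0.

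The proportions of the 5 genes within a library were compared next, and in 12 of 30 comparisons the libraries of the lines compared did not overlap. Between 8.42% and 41.5% of all tested genes had such a ratio to a member, depending on the member and the comparison. The ratios are built from the same 5 genes and the comparisons share libraries, so the 30 are not separate evidence. Nefl, the main transcript of Nefm, and Ina are of nearly equal length, so ratios of their reads compare transcripts closely, and a ratio within a library does not depend on the scaling between libraries. Ina gave 11, 15.4 and 18.6 reads per 100 reads of Nefl in 129 replicates 1 to 3. The hybrid libraries had 12.4, 8.31 and 10.5 such reads, the CAST libraries 24.6, 25.6 and 28.4. The CAST libraries lay in a narrow range above all others, and 129 and the hybrid overlapped. The difference in mean log2 ratio was 0.84 for CAST minus 129 and −1.35 for the hybrid minus CAST, or 1.79 and 0.393 times. Both separated the libraries fully, with exact two-sided permutation p = 0.1, the smallest that 3 against 3 allows, and an adjusted p of 0.25 over 30 ratio comparisons. Of all tested genes, 15.5% had a ratio to Nefl without overlap between CAST and 129, and 13.0% between the hybrid and CAST, where 41.5% had a ratio to Ina without overlap. Without CAST 1 and hybrid 2 the differences were 0.88 for CAST minus 129 and −1.24 for the hybrid minus CAST.

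The medium against the light subunit separated CAST from 129. Nefm gave 74.7, 79.3 and 64.4 reads per 100 of Nefl in 129, where the hybrid had 98.1, 73.8 and 94.8 and CAST had 96.4, 118 and 109. CAST and 129 did not overlap, with a log2 difference of 0.57 (exact permutation p = 0.1, adjusted p = 0.25), where 15.5% of all genes had a ratio to Nefl, and 17.0% a ratio to Nefm, without overlap. The hybrid overlapped both. With the offset for exon length the differences from 129 were 0.94 for CAST and 0.77 for the hybrid, which then did not overlap 129. That offset takes Nefm at the 5782 bases of all its annotated exons, not at the 3334 bases of its main transcript. An offset by the main transcript was not tested. Without hybrid 2 the hybrid did not overlap 129 either, at 0.41 against 0.28 with all libraries. The exons that Nefl and Nefm share on opposite strands enter both sides of this ratio, and their part in it was not tested.

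The heavy against the medium subunit separated the hybrid from 129. Nefh gave 8.27, 12.5 and 18.1 reads per 100 of Nefm in 129, where the hybrid had 6.36, 4.49 and 3.39 and CAST had 8.56, 6.83 and 5.03. The hybrid and 129 did not overlap (log2 difference −1.42, exact permutation p = 0.1, adjusted p = 0.25; 18.4% of all genes had a ratio to Nefm, and 31.2% a ratio to Nefh, without overlap), and CAST overlapped both. Against Nefl, Nefh gave 6.18, 9.89 and 11.7 reads per 100 in 129, and the hybrid had 6.24, 3.31 and 3.22, where hybrid 1 overlapped 129.

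The ratio of Ina to Nefh was nearly constant in 129, where Ina gave 178, 155 and 159 reads per 100 of Nefh. The hybrid had 199, 251 and 326 and CAST had 298, 318 and 517, so every 129 library lay below both other lines. The log2 differences from 129 were 1.16 for CAST and 0.63 for the hybrid (exact permutation p = 0.1, adjusted p = 0.25 each; 8.71% and 31.2% of all genes had a ratio to Nefh without overlap in these comparisons). Against Nefm, Ina gave 14.7, 19.4 and 28.8 reads per 100 in 129, where the hybrid had 12.7, 11.3 and 11.1 and CAST had 25.6, 21.7 and 26.0. All hybrid libraries lay below both parental lines, with log2 differences of −0.79 from 129 and −1.06 from CAST. In the first of these 18.4% of all genes had a ratio to Nefm, and 15.1% a ratio to Ina, without overlap. In the second these shares were 12.5% and 41.5%. With the offset for exon length the difference of CAST minus 129 in this ratio changed sign, from 0.27 to −0.13. There too the offset takes Nefm at all its annotated exons.

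**Figure D4:**
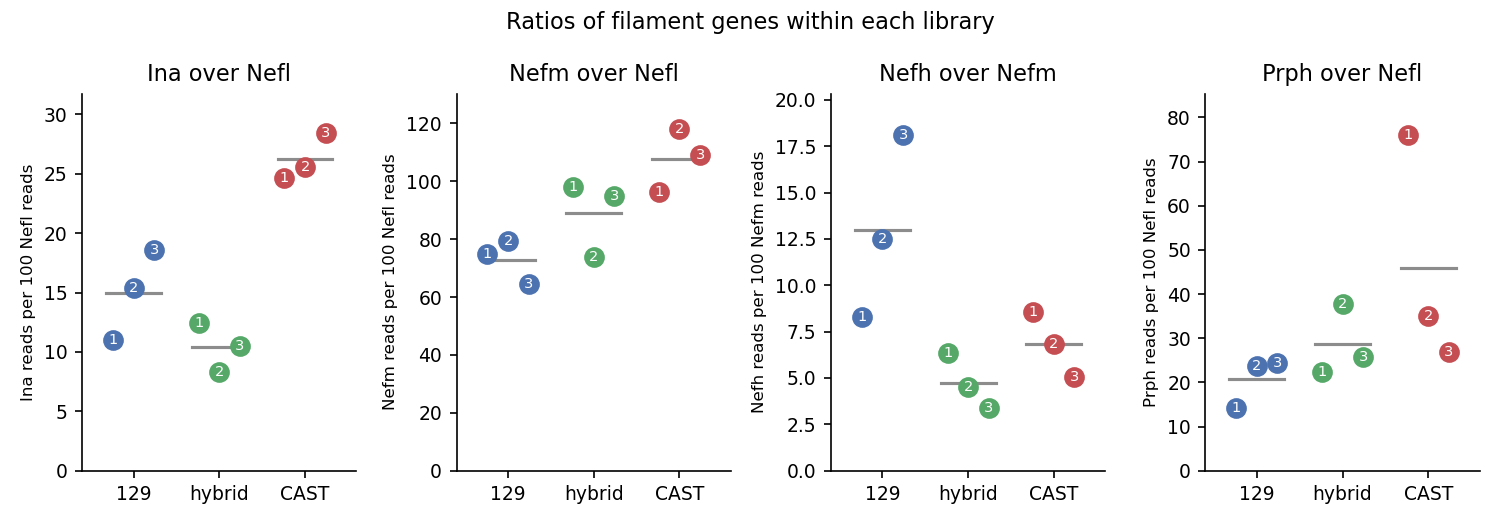
Reads of one gene per 100 reads of another within each library for 4 pairs of genes, on linear axes from 0, with 1 numbered point per library and a bar at the group mean. Ina over Nefl in CAST (24.6 to 28.4) lies above all other libraries, and Nefh over Nefm in the hybrid (3.39 to 6.36) lies below all of 129.

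Relative to Nefl, Prph had its widest range in CAST. It gave 14.2, 23.7 and 24.3 reads per 100 of Nefl in 129, where the hybrid had 22.4, 37.7 and 25.8 and CAST had 76.0, 35.0 and 26.9. CAST and 129 did not overlap here, with a log2 difference of 1.05, which was 0.61 without CAST 1. In this comparison 15.5% of all genes had a ratio to Nefl, and 8.42% a ratio to Prph, without overlap. Per 100 reads of Nefh, Prph gave 230.0, 240.0 and 208 in 129, where the hybrid had 358, 1140 and 802 and CAST had 921, 433 and 491, with all of 129 below both. The log2 difference was 1.37 for CAST minus 129, or 1.03 without CAST 1, and 1.61 for the hybrid minus 129, or 1.25 without hybrid 2. For CAST and 129, 8.71% of all genes had a ratio to Nefh, and 8.42% a ratio to Prph, without overlap. For the hybrid and 129 these shares were 31.2% and 10.4%. Per 100 reads of Ina, Prph gave 129, 154 and 131 in the 129 libraries, where the hybrid had 180.0, 454 and 246 and CAST had 309, 136 and 95. Hybrid and 129 did not overlap in this ratio, with a log2 difference of 0.98, or 0.61 without hybrid 2, where 15.1% of all genes had a ratio to Ina, and 10.4% a ratio to Prph, without overlap. CAST 1 and hybrid 2, the libraries rich in short transcripts, held the highest proportion of Prph, the shortest of the 5 transcripts. With an offset for exon length, Prph over Nefl in CAST against 129 was 0.75, Prph over Nefh in hybrid against 129 was 0.97, and Prph over Ina in hybrid against 129 was 0.56.

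In all, 12 of the 30 ratio comparisons were without overlap, 5 in CAST against 129, 5 in hybrid against 129 and 2 in hybrid against CAST. Of all tested genes, between 8.42% and 41.5% had a ratio without overlap, depending on the member used as reference and on the comparison. The count was 16 with the offset for exon length and 17 without CAST 1 and hybrid 2, where groups of fewer libraries separate more readily by construction, and none of the 30 passed after adjustment. An exact permutation test over all 3 lines at once, added after the data were seen, can reach a p of 0.00357. The exact p was 0.00714 for Ina over Nefl, 0.0107 for Ina over Nefh, 0.0179 for Nefh over Nefm and 0.0214 for Ina over Nefm, each with an adjusted p of 0.0535 over the 10 ratios. For Nefm over Nefl the exact p was 0.0286 (adjusted p = 0.0572). None of the 10 passed the threshold of 0.05 after adjustment, and as ratios among the same 5 genes they are not separate evidence.

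**Figure D5:**
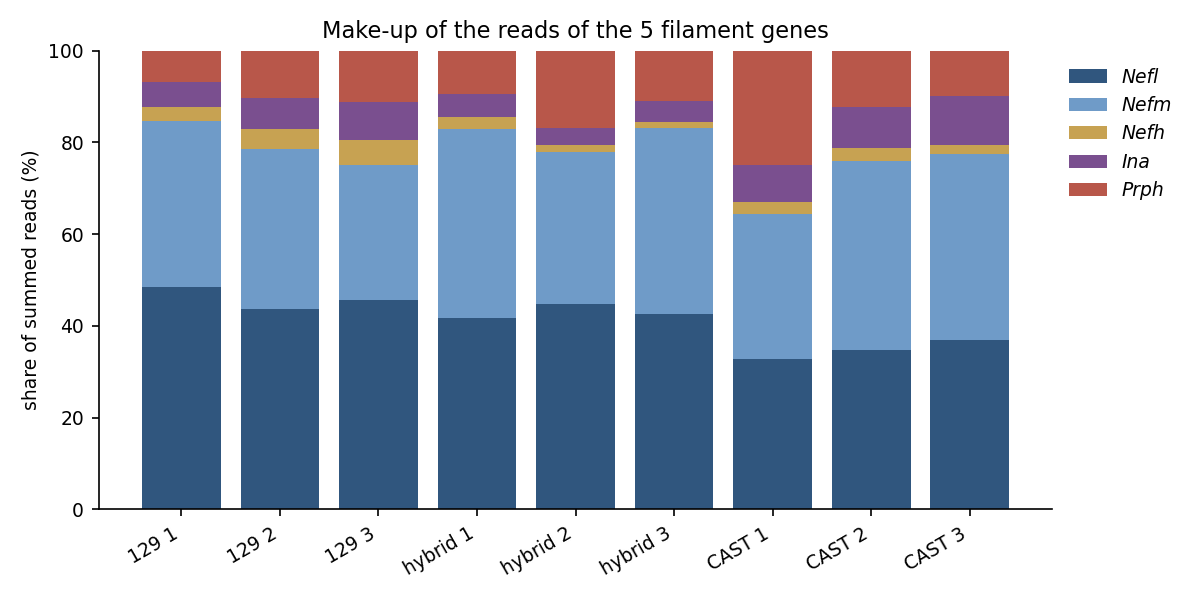
Share of each gene in the reads of the 5 genes, in percent, as 1 stacked bar per library that sums to 100. Nefl and Nefm fill most of each bar, Ina takes 8.07% to 10.5% in CAST and 3.72% to 5.20% in the hybrid, and Prph reaches 24.9% in CAST 1.

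Set against the mean of the 19 general neuronal genes, Nefl stayed close in 129, at 3.38, 3.45 and 3.41 log2 units above that mean, while its own level differed 2.36 times between these libraries. For the hybrid it was 3.13, 4.0 and 3.6 above, and for CAST 3.54, 3.05 and 2.90 above. On this scale 3 of 15 comparisons were without overlap. For Ina the difference was 0.59 in CAST minus 129, where 15.1% of all genes were without overlap, and −0.94 in the hybrid minus CAST (15.4%). For Nefh it was −0.98 in the hybrid minus 129 (20.1%), with means of −1.05 ± 0.27 and −0.07 ± 0.50 log2 units (SD, n = 3). Each had an exact permutation p of 0.1, the smallest that 3 against 3 allows, and an adjusted p of 0.5, so none of the 15 could pass.

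Genes that act on neurofilaments were counted by a list of 25, which holds kinesin and dynein motors, crosslinking plakins, kinases of the tails, an isomerase of their phosphorylated sites, turnover factors and mRNA-binding proteins. Of these, 24 were tested and edgeR called 0 in any comparison, where it called between 0.917% and 8.03% of all genes. At an unadjusted p under 0.05 edgeR also had 0 of the 24. The share of all genes was 14.6% in CAST against 129, 22.2% in hybrid against 129, 15.8% in hybrid against CAST and 18.4% against the midparent. DESeq2 and limma-voom also called 0 of these 24 genes. Their median log2 fold change was −0.41 in CAST against 129, −0.80 in hybrid against 129, −0.50 in hybrid against CAST and −0.64 against the midparent, where the medians over all genes were 0.06, 0.02, −0.08 and −0.02. The most abundant was Map1b, a microtubule-binding protein of growing axons. It was at 2330, 3990 and 5900 CPM in 129, 2370, 553 and 1370 CPM in the hybrid, and 768, 3690 and 4200 CPM in CAST. Its lowest values were in hybrid 2 and CAST 1, the libraries poor in long transcripts. The next, Dync1h1, the heavy chain of the dynein motor, was at 1130, 1740 and 1730 CPM in 129, 1230, 194 and 541 CPM in the hybrid, and 339, 1130 and 1510 CPM in CAST, with the same low libraries. Neither passed, at −1.51 ± 0.80 and −1.22 ± 0.75 (SE) in hybrid against 129 (edgeR adjusted p = 0.289 and 0.345), and with the offset for exon length at −0.73 and −0.56.

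Other intermediate filaments were tested for 14 of 15 listed genes, and edgeR called 1 in 1 comparison, that with the midparent (7.34% of all genes). At an unadjusted p under 0.05 edgeR had 1 in CAST against 129 (14.6% of all genes) and 3 in hybrid against 129 (22.2%). It had 2 in hybrid against CAST (15.8%) and 3 against the midparent (18.4%). DESeq2 called 1, 3, 2 and 2 in these comparisons, and limma-voom 0, 1, 1 and 1. The DESeq2 counts over all genes are given further below. For limma-voom that count is given only for CAST against 129, so its hybrid counts stand without a share of all genes. Gfap, the filament protein of astrocytes, was at 27.0, 3.17 and 3.10 CPM in 129, 76.6, 305 and 162 CPM in the hybrid, and 2.17, 23.1 and 14.4 CPM in CAST. Every hybrid library lay above every parental library. Gfap was higher in the hybrid than in the midparent, by 3.90 ± 0.86 on the log2 scale (SE; edgeR adjusted p = 0.0211), and did not pass against 129 (4.03 ± 1.13, adjusted p = 0.0691) or CAST (3.77 ± 1.12, adjusted p = 0.0953). The midparent call was lost without 129 3, hybrid 2 or CAST 3 (adjusted p = 0.0517, 0.0974 and 0.0535). DESeq2 and limma-voom called Gfap against each of 129, CAST and the midparent.

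The other lists describe the cells beside which the 5 genes were measured, and edgeR called 0 of their genes in any comparison. An unadjusted p under 0.05 was reached in edgeR by 14.6% of all genes in CAST against 129 and 22.2% in hybrid against 129. The share was 15.8% in hybrid against CAST and 18.4% against the midparent. DESeq2 called more of all genes than edgeR in every comparison, by the counts given further below. Of the 19 general neuronal genes, 0 passed an unadjusted p under 0.05 and 0 were called by DESeq2 or limma-voom, with medians of 0.34 in CAST against 129, 0.30 in hybrid against 129 and −0.42 in hybrid against CAST. Of 12 spinal motor neuron genes 1 passed unadjusted in CAST against 129, with a median of −0.77. In hybrid against 129 also 1 passed unadjusted and DESeq2 called 1, with a median of −0.774 and 1 of the 12 positive. Of 13 fibroblast and mesenchyme genes 4 passed unadjusted in CAST against 129, with a median of −1.91, and DESeq2 called 4. In hybrid against CAST 4 of them passed unadjusted, with a median of 1.15, and DESeq2 called 3. Of 11 genes of peripheral and cranial neurons 3 passed unadjusted in CAST against 129, and DESeq2 called 3. Of 9 progenitor and radial glia genes and 5 oligodendrocyte and Schwann genes, at most 3 and 2 passed unadjusted in a comparison, and DESeq2 called at most 3 and 2. Limma-voom called 0 in each of these lists, and its count over all genes is given further below only for CAST against 129.

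Genes whose profile over the 9 libraries was most like that of each gene were ranked by the root mean square difference of centred log2 CPM, among 11321 candidates with a mean of at least 5 CPM. Closest to Nefl were Chst1, a carbohydrate sulfotransferase, at 0.17 log2 units, Ttll11, a tubulin polyglutamylase, at 0.21 and Pfn2, a neuronal profilin, at 0.21. Closest to Nefm were Ptpn5, a neuronal tyrosine phosphatase, at 0.14, Ppp2r2b, a regulatory subunit of protein phosphatase 2A, at 0.16 and Mapk8ip2, a scaffold of the JNK pathway, at 0.16. Nefm itself was 0.27 from Nefl, with 0.300% of candidates closer to Nefl. Closest to Nefh were Isl1 at 0.29, Mtmr7, a myotubularin-related phosphatase, at 0.31 and Vamp1, a synaptic vesicle SNARE protein, at 0.31. Closest to Ina were B3gnt7, a glycosyltransferase, at 0.16, Ngfr, the low-affinity neurotrophin receptor, at 0.21 and Camsap3, a microtubule minus-end protein, at 0.21. Closest to Prph were Tubb3, the neuronal beta-tubulin, at 0.18, Adap1 at 0.21 and Coro1a, an actin-binding coronin, at 0.23. Tubb3 was at 330.0, 575 and 960.0 CPM in 129, 403, 1520 and 1500 CPM in the hybrid, and 3230, 1060 and 550.0 CPM in CAST, highest in CAST 1 as Prph was. Nefh and Prph lay farthest apart of the 10 pairs of members, at 0.86, and Nefl and Nefm closest. These distances describe 9 libraries that share their differences in depth and length bias, and carry no test.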

How the data were processed

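The authors deposited raw counts, whole numbers of reads per Ensembl gene. STAR and mm10 are the aligner and build that the submitters' processing notes name. The version, counter, annotation and strandedness of counting: not given in the sources used here. How strain differences from that genome affect alignment was not tested. Per the labels, RNA was DNase-treated and poly-A selected, with random-hexamer priming. The number in each column name was taken as the replicate of that line.

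Genes were filtered with filterByExpr (minimum count 10, total 15, proportion 0.7), scaled by TMM and fitted with robust quasi-likelihood edgeR 4.0.16 in R 4.3.3, all lines in 1 fit, after tests on simulated data. DESeq2 1.42.0 and limma-voom (limma 3.58.1) were alternatives, as were other scalings, no filter, only the compared lines, an exon-length offset and leaving out libraries. CPM use TMM scaling, and log ratios a prior count of 2. Total counts of 7763077 to 18167577 make counting error small beside library spread. Identities, exons and coding sequences come from GENCODE M21 (GRCm38), which need not be the annotation counted.

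The members and the 8 gene lists (117 genes) were chosen with earlier results of these data known. From each list, up to 3 genes per direction past an adjusted p of 0.05 were named, or otherwise the 2 most abundant. Names of other lists' leading genes are left out, and motor neuron markers were added after their values were seen. Promoters and protein sequences were not used here.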

Additional observations from a re-analysis of the deposited data

How the results depend on the processing

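Of the 18 or 19 alternatives per comparison, DESeq2 and limma-voom were a single alternative each, and the rest used edgeR. None of the 5 genes was called under any alternative. Their log2 fold changes changed sign in 33 of 375 values. With upper quartile scaling, which moved the median of all genes by 0.21, 0.17 and 0.20 in the hybrid comparisons, Nefl in CAST against 129 became 0.026, Nefm in hybrid against CAST 0.067 and Prph against the midparent 0.17. Prph against the midparent was also 0.0094 with total counts and 0.038 with limma-voom. With the exon-length offset Nefl was −0.15 and Prph −0.29 against 129 in the hybrid, and Nefl −0.011 against the midparent. Without CAST 1 and hybrid 2, hybrid against CAST gave 0.24 for Nefm and 0.16 for Prph, and the midparent comparison 0.20 for Prph. The cause of these changes was not tested.

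Equal replicate numbers were not taken as pairs: deviations from the line means correlated above 0.1 in 2 of 9 pairs (−0.72 to 0.49), and 2 of 9 libraries were closest to their own number. With a replicate block Nefl was 0.11 in CAST against 129 and −0.0043 in hybrid against CAST, and the block left 6, 561 and 526 calls in CAST against 129, hybrid against 129 and hybrid against CAST and 651 in the joint test.

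The main numbers of calls over all genes in CAST against 129, hybrid against 129, hybrid against CAST, the midparent comparison and the joint test were 136, 1041, 891, 1089 and 1192. DESeq2 gave 939, 2100, 1597, 1790 and 2506. In CAST against 129 limma-voom gave 263, the exon-length offset 262 and the fit without CAST 1 and hybrid 2 gave 230.

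With 1 library left out at a time, the 5 counts ranged from 26 to 157, from 522 to 1717, from 643 to 923, from 884 to 1850 and from 788 to 1485. CAST against 129 had 51, 26 and 32 calls without 129 1, 2 and 3, and 31 and 61 without CAST 2 and 3. Hybrid against 129 had 673, 522 and 564 without 129 1, 2 and 3 and 1717 without CAST 1, the midparent comparison 1850 without CAST 1, and the joint test 788 without 129 2. Nefl ranged from −0.43 to 0.35 in CAST against 129, −0.24 to 0.49 in hybrid against 129, −0.20 to 0.53 in hybrid against CAST and −0.22 to 0.46 against the midparent. Nefm ranged from −0.045 to 0.70, −0.58 to 0.19 and −0.31 to 0.44 in the 3 hybrid comparisons. Nefh ranged from −0.93 to 0.22 in CAST against 129 (positive without 129 3) and Ina from −0.98 to 0.048 in hybrid against 129 (likewise). Prph ranged from −1.15 to 0.42 in hybrid against CAST and −0.38 to 0.47 against the midparent.

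Of values relative to general neuronal genes, 3 comparisons without overlap became 7 with the exon-length offset and 5 with the spinal motor neuron list. The count was 5 without CAST 1 and hybrid 2, and 3 to 8 with 1 library left out. Smaller groups separate more readily by construction. These values changed sign in 11 of 195 cases. With the motor neuron list, CAST against 129 changed from −0.246 to 0.532 for Nefl and from −0.567 to 0.21 for Nefh. Ina in hybrid against 129 changed from −0.345 to 0.261, and Nefm in hybrid against CAST from 0.125 to −0.0467. Ratios between members changed sign in 13 of 360 values, 12 of them with Prph. All 30 ratio comparisons were too small in libraries to pass after adjustment. Depth limits little here, since counting error is small beside the spread of libraries, while 3 libraries per line do.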
